A study of Homo sapiens with 12 samples.

Results

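The HeyA8 family of ovarian cancer lines was set against the SKOV3 and OV2008 families to ask which genes set HeyA8 cells apart whatever the drug treatment. Of the 60669 genes in the count table, 3738 did not overlap between the 4 HeyA8 family libraries and the 8 libraries of the other families. Of these member genes, 2159 had their lowest normalized level in the HeyA8 family above the highest level elsewhere (higher members, 5.45% of the 39590 genes with any count), and 1579 had their highest level in the HeyA8 family below the lowest level elsewhere (lower members, 3.99%). An expression filter kept 17766 genes, among them 1743 higher members (9.81% of the genes kept) and 1512 lower members (8.51%). The other 416 higher and 67 lower members had too few counts and are only counted here. Membership rests on the measured levels themselves, so not overlapping is a description of the member genes and no test. The same rule gave 4325 genes kept for the SKOV3 family and 3537 for the OV2008 family, so the HeyA8 family had the fewest genes of its own by this rule.

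The 12 libraries are RNA-seq of polyadenylated RNA from 6 established human lines that the submitters label as ovarian cancer. HeyA8 and its resistant partner HeyA8_MDR form the HeyA8 family. SKOV3 with SKOV3_TR and OV2008 with OV2008_C13 form the others. Each line gave 1 library after vehicle and 1 after 8 µM quinacrine (QC) for 6 h, so no line had a replicate of its own. Per the study's methods HeyA8_MDR was carboplatin-resistant, SKOV3_TR taxol-resistant and OV2008_C13 cisplatin-resistant. The lines of a family descend from 1 parent, and the HeyA8 lines grew in high-glucose DMEM while the other families grew in RPMI-1640, so family and medium cannot be told apart in these data. Levels are CPM (counts over the library total scaled by TMM), which take no account of gene length and are compared within a gene only. Values per library are given in the order HeyA8 vehicle, HeyA8 QC, HeyA8_MDR vehicle and HeyA8_MDR QC, and the other 8 libraries by their lowest, median and highest value.

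Total counts lay between 17782556 and 30585059 per library. The 4 HeyA8 family libraries correlated with each other at 0.953 to 0.984 over the genes kept, on the log2(CPM + 0.5) scale, and with the other families at 0.771 to 0.828, as a description of libraries that share lines. HeyA8_MDR and HeyA8 differed by 2-fold or more in 3456 of the genes kept between their vehicle libraries and in 900 between their QC libraries. ABCB1, the drug efflux pump that marks many multidrug-resistant lines, measured 4.11, 26.6, 54.2 and 54.6 CPM. Without the HeyA8 QC library the rule gave 1839 higher and 1615 lower members among the genes kept. Without the HeyA8 vehicle library it gave 2304 and 1942. Leaving out a library loosens the rule and can only add members. The balance of directions depended on scaling: 53.5% of the members kept were higher ones with TMM, 36.7% with scaling to the library total and 22.1% with scaling to 12 reference genes.

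Epithelial cells are held together by cadherin junctions, desmosomes and tight junctions, and their identity is kept by factors such as ELF3 and GRHL2. Cells in a mesenchymal state lose these junctions, express vimentin and fibronectin, and carry the ZEB, SNAI and TWIST repressors, which bind the E-box letters CACCTG (or CAGGTG on the other strand). Ovarian carcinoma lines span this range, and many retain PAX8, the Mullerian lineage factor.

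The widest gaps were found for 10 higher members with at least 5 CPM in every HeyA8 family library. ESM1, a proteoglycan secreted by endothelial cells, measured 643, 959.8, 499 and 1174 CPM in the HeyA8 family. Its lowest, median and highest level in the other 8 libraries was 0, 0.0998 and 0.267 CPM. TIE1, an endothelial receptor kinase, measured 675, 631, 559 and 612 CPM against 0, 0.223 and 4.19 CPM elsewhere. All 4 HeyA8 family libraries thus held at least 499 CPM of both genes, and no other library reached 5 CPM. In bulk RNA, more expressing cells and more RNA per cell cannot be told apart. SRGN, the core protein of secretory granule proteoglycans, measured 386, 459.9, 278 and 344 CPM against 0.151, 0.366 and 0.637 CPM. MME, the membrane peptidase neprilysin, measured 799.8, 874, 822 and 1152 CPM against 0, 1.28 and 4.22 CPM. FLNC, a muscle filamin that cross-links actin, measured 492, 412, 365 and 199 CPM against 0, 0.259 and 0.624 CPM. FLNC was lowest in the HeyA8_MDR QC library and MME highest there, and by the rule neither overlapped with the other families. The remaining widest gaps were those of ADAMTSL1, CLDN11, AEBP1, MT1E and ENG. ENG, the endothelial TGF-beta co-receptor endoglin, measured 417, 282, 263 and 212 CPM against 0.615, 1.29 and 2.01 CPM. MT1E, a metallothionein that binds zinc and copper, measured 81.99, 72.9, 86.2 and 51.3 CPM and was at 0 counts in 7 of the other 8 libraries.

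**Figure D1:**
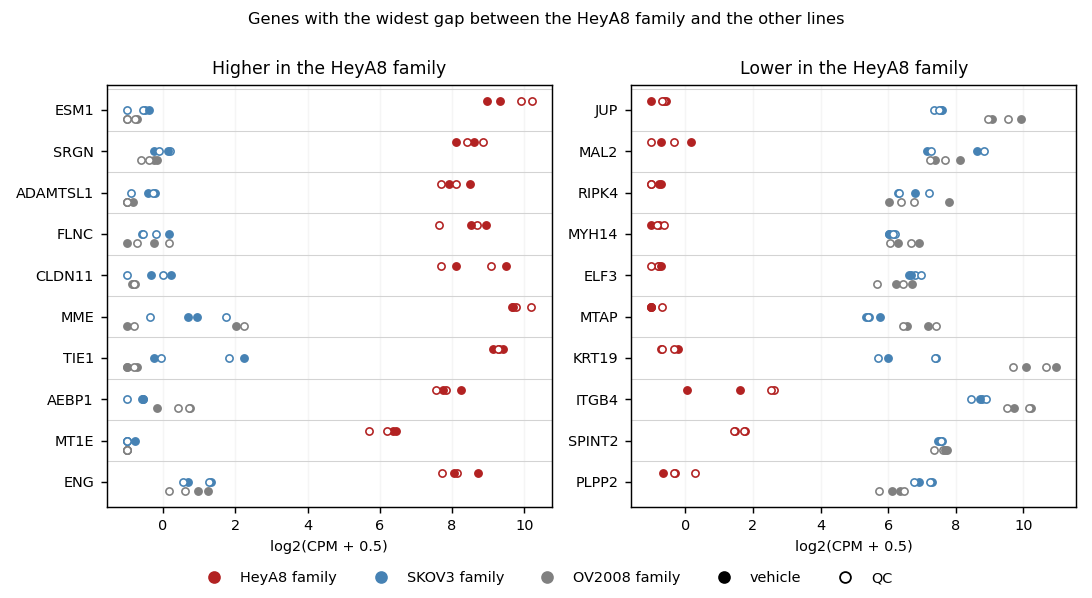
Level of the 10 higher and 10 lower member genes with the widest gap, as log2(CPM + 0.5), 1 point per library, with filled points for vehicle, open points for QC and colours for the families. The 4 HeyA8 family points of each gene lie apart from the 8 points of the other families.

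The 10 lower members with the widest gap and at least 5 CPM in each of the other 8 libraries included 4 genes of the epithelial list described below (JUP, MAL2, ELF3 and SPINT2). JUP, the junction protein plakoglobin, measured 0.177, 0.147, 0 and 0.118 CPM against 162, 344 and 971 CPM in the other libraries. KRT19, a simple epithelial keratin, measured 0.354, 0.293, 0.105 and 0.118 CPM against 51.7, 502 and 2003 CPM. ITGB4, the integrin subunit of hemidesmosomes, measured 0.5304, 5.61, 2.56 and 5.27 CPM against 350.1, 604 and 1206 CPM. JUP and KRT19 were at or near 0 in all 4 HeyA8 family libraries, while ITGB4 was lowest in the HeyA8 vehicle library and remained far below every other library. RIPK4, a kinase of keratinocyte differentiation, measured 0.0884, 0, 0.105 and 0 CPM against 64.2, 95.8 and 222 CPM. MYH14, a non-muscle myosin heavy chain, measured 0.0884, 0.147, 0 and 0.0592 CPM against 64.1, 71.5 and 120.3 CPM. PLPP2, a lipid phosphatase, measured 0.133, 0.733, 0.314 and 0.296 CPM against 52.2, 98.5 and 158 CPM. None of these 3 genes reached 1 CPM in a HeyA8 family library. MAL2, ELF3, MTAP and SPINT2 complete the set and are described below with their groups.

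Most member genes differed by much less. The gap, the lowest level on one side over the highest on the other with 0.5 CPM added to both, had a median of 1.43-fold over the higher and 1.35-fold over the lower members kept. It was at least 2-fold for 516 higher and 396 lower members, and at least 10-fold for 96 and 61. At the edge of the rule, SDF4 was the higher member with the smallest gap and RASGRF2 the gene that missed it by least, with ratios of 1.00006 and 0.999691. On the lower side CABYR was just inside and NFE2L2 just outside, with ratios of 1.00017 and 0.999843. Of the higher members kept, 376 were under 1 CPM in all 8 other libraries, and 560 lower members were under 1 CPM in all 4 HeyA8 family libraries.

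A test with the line as the unit was made with edgeR's quasi-likelihood method on the summed counts of each line, 2 HeyA8 lines against 4 others. It called 182 genes higher (1.02% of the genes kept) and 126 lower (0.709%) at a Benjamini-Hochberg adjusted p under 0.05. These p-values compare these lines, not families in general. For a member gene they rest on the same levels as the rule and add no independent support to its membership. The calls needed both HeyA8 lines, since without HeyA8 the test left 2 higher and 0 lower genes and without HeyA8_MDR it left 0 and 0, with 1810 and 1411 genes at an unadjusted p under 0.05. Without OV2008 it left 49 and 29, and without OV2008_C13 it left 56 and 31. DESeq2 on the same sums called 919 higher and 1679 lower. Below, a fixed set of gene lists is described by the number of members in each direction, to be read against 9.81% and 8.51%, and by the number that edgeR called.

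Genes of epithelial junctions and identity were low in the HeyA8 family. Of 42 list genes kept, 25 (59.5%) were lower members and 1 was a higher member, and in 35 the HeyA8 family had the lowest median of the 3 families. The median log2 difference of the list from the other libraries was -3.37, against -0.05 over all genes kept. edgeR called 4 of the 42 genes lower and 0 higher. The number called lower was 15 with no filter, 31 with a term for each family, 32 over 12 libraries with a treatment term, 37 with DESeq2 and 0 without HeyA8 or without HeyA8_MDR. The count of lower members was 25 without the HeyA8 QC library, and leaving out a library cannot reduce it.

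The called genes were ELF3, SPINT2, MAL2 and JUP. ELF3, an epithelial transcription factor, measured 0.0884, 0.0733, 0.105 and 0 CPM against 50.4, 100.4 and 124 CPM elsewhere, with an edgeR adjusted p of 0.00385. SPINT2, an inhibitor of cell surface serine proteases, measured 2.298, 2.198, 2.87 and 2.84 CPM against 162, 191 and 215 CPM, a log2 difference of -6.20 (SE 0.39, adjusted p = 0.0055) with edgeR. MAL2, a protein of apical transport, measured 0.619, 0.293, 0.105 and 0 CPM against 142, 185 and 456 CPM, with an edgeR adjusted p of 0.0215. The adjusted p of JUP was 0.0188 with edgeR. ELF3 and JUP had at most 4 counts in any HeyA8 family library, so no fold is given for them.

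CDH1, the epithelial cadherin, was a lower member that edgeR did not call. It measured 0.221, 0.0733, 0 and 0 CPM in the HeyA8 family, between 3.68 and 51.00 CPM in the SKOV3 family and between 307 and 522 CPM in the OV2008 family (edgeR adjusted p = 0.0884, and 0.00441 with a term for each family). EPCAM, an epithelial adhesion molecule, measured 2.92, 1.87, 0.0523 and 0 CPM, against between 3.09 and 52.9 CPM and between 182 and 245 CPM (edgeR adjusted p = 0.211). Both genes were far lower in SKOV3_TR than in SKOV3, and the HeyA8 family lay only just below SKOV3_TR for EPCAM. The desmosome gene DSP measured 57.1, 84.4, 120.2 and 77.3 CPM against 342, 462 and 979.5 CPM, a log2 difference of -2.74 (SE 0.54, adjusted p = 0.063) with edgeR. DSP was thus lower but well expressed in the HeyA8 family. DSG2, another desmosomal cadherin, measured 309, 265, 382 and 299.6 CPM against 235, 325 and 418 CPM and overlapped.

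Some of the list marked OV2008 rather than separating HeyA8. GRHL2, a master regulator of epithelial genes, was at 0 counts in all 4 HeyA8 family libraries, between 0 and 0.0594 CPM in the SKOV3 family and between 87.7 and 103 CPM in the OV2008 family. ESRP1, an epithelial splicing regulator, measured 1.86, 1.21, 0.941 and 1.01 CPM, against between 0.107 and 3.14 CPM and between 125 and 167 CPM. The HeyA8 and SKOV3 families overlapped for ESRP1, and both were far below OV2008. CLDN1, a tight junction claudin, was the list's only higher member at 657, 562, 328 and 499 CPM against 31.99, 114 and 214 CPM.

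Of 17 keratins kept, KRT19 was the only member (lower, 5.88%), a share near that of all genes. The HeyA8 family had the lowest median of the 3 families in 7 keratins, the middle one in 9 and the highest in 1, and the median log2 difference was -1.09. KRT8, a simple epithelial keratin, measured 810.4, 817, 1009 and 1055 CPM in the HeyA8 family, between 212 and 353 CPM in the SKOV3 family and between 1815 and 3949 CPM in the OV2008 family. Its partner KRT18 measured 477, 593, 573 and 621 CPM, against between 162 and 211 CPM and between 920.3 and 2098 CPM. For both genes the HeyA8 family lay between the other 2 families without overlap, so they are no members. KRT7 measured 414, 732, 556 and 704 CPM and overlapped with the SKOV3 family, where it lay between 259 and 678 CPM.

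Sequences upstream of lower epithelial members are shown as examples of genes that were low together and hold the E-box letters. RefSeq promoters (GRCh38.p14) were matched by symbol for 14 of the 25 lower epithelial members and for 69.7% of all members kept. Both shares are under the 80% set as a minimum, so a comparison of letters with other genes is void for the list and for the whole set. In the 250 bases before the start, CACCTG or CAGGTG stood in 17.5% of the 27305 promoters of the table, and the 3 genes printed are among 5 of the 14 that held them. Below are the 250 bases before the start on the plus strand for CRB3 at chr19:6464021-6464270, PATJ at chr1:61742230-61742479 and ELF3 at chr1:202010337-202010586, 5′ to 3′, with CACCTG or CAGGTG in capitals.
CRB3: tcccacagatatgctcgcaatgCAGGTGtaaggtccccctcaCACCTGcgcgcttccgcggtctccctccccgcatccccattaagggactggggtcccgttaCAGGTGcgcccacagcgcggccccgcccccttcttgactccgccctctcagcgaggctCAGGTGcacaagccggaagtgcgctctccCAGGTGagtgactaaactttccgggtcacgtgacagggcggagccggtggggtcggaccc
PATJ: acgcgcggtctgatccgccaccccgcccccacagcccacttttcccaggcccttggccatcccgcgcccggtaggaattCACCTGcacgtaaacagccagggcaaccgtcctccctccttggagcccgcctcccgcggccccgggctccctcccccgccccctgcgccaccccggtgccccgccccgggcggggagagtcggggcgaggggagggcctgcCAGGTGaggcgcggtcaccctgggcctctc
ELF3: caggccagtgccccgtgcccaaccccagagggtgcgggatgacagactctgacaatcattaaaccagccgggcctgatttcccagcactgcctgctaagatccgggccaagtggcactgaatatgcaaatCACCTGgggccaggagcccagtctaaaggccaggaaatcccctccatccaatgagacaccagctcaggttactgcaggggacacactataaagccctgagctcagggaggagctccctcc
A match of letters is a description and not a bound site. CRB3, a polarity protein of the apical membrane, held 5 matches and measured 0, 0, 0.314 and 0.118 CPM in the HeyA8 family against 11.9, 16.7 and 28.9 CPM elsewhere. PATJ, a tight junction scaffold that binds the same polarity complex, held 2 matches and measured 7.602, 4.62, 0.836 and 1.18 CPM against 39.01, 90.1 and 128 CPM. PATJ was lowest in both HeyA8_MDR libraries. ELF3 held 1 match. JUP, SPINT1, CLDN3 and CLDN4 held 0 within this window.

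Part of the mesenchymal list was high in the HeyA8 family. Of 33 list genes kept, 12 (36.4%) were higher members, 0 were lower members and 21 overlapped, and in 19 the HeyA8 family had the highest median. edgeR called 2 genes higher, FN1 and ACTA2, and 0 lower. The median log2 difference of the list was 1.68. The count of higher members was 12 without the HeyA8 QC library, and leaving out a library cannot reduce it. With the line OV2008 left out, edgeR called 0 of the list.

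FN1, fibronectin of the extracellular matrix, measured 11809, 6727, 7303 and 6334 CPM against 4.19, 47.8 and 217 CPM in the other libraries, a log2 difference of 6.86 (SE 1.18, adjusted p = 0.0467) with edgeR. ACTA2, smooth muscle actin, measured 45.9, 132, 104 and 172 CPM against 0.6701, 2.13 and 20.1 CPM, a log2 difference of 4.59 (SE 0.75, adjusted p = 0.042) with edgeR. ACTA2 was lowest in the HeyA8 vehicle library, and all 4 libraries were above the highest of the others, which the rule requires. With library size in place of TMM, edgeR called 0 of the list's genes, and with a term for each family it called 13. DESeq2 called 8.

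VIM, the mesenchymal intermediate filament vimentin, separated all 3 families. It measured 8475, 7935, 10429 and 11921 CPM in the HeyA8 family, between 1189 and 2174 CPM in the SKOV3 family and between 0.223 and 1.95 CPM in the OV2008 family. With this spread between the other families edgeR gave a log2 difference of 3.58 (SE 2.33, adjusted p = 0.438). With a term for each family, which takes the difference between the other families out of the error, the log2 difference was 7.73 (edgeR adjusted p = 0.000627). Of the transcription factors, ZEB2 and TWIST2 were higher members. ZEB2, a repressor of CDH1, measured 57.9, 32.8, 18.3 and 22.2 CPM against 0, 0.299 and 1.96 CPM. ZEB1, the related repressor, measured 158, 126, 31.7 and 90.7 CPM, and its HeyA8_MDR vehicle value lay below the SKOV3 family's range, which was between 49.2 and 68.5 CPM. OV2008 family libraries held between 0.112 and 0.602 CPM of ZEB1. SNAI1, TWIST1 and CDH2 overlapped with the other families. TNC, the matrix protein tenascin C, measured 1273, 939, 837 and 975 CPM against 0.591, 7.73 and 34.6 CPM. FAP, a fibroblast surface protease, measured 14.8, 5.42, 4.76 and 5.03 CPM against 0, 0.0227 and 0.263 CPM, and its HeyA8 vehicle value was the highest of the 4. S100A4, a calcium-binding protein often used as a fibroblast marker, measured 1.503, 2.42, 0.836 and 1.07 CPM in the HeyA8 family, between 392 and 739.6 CPM in the SKOV3 family and between 1.899 and 4.44 CPM in the OV2008 family. The HeyA8 family was thus below SKOV3 and overlapped with OV2008 for S100A4.

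**Figure D2:**
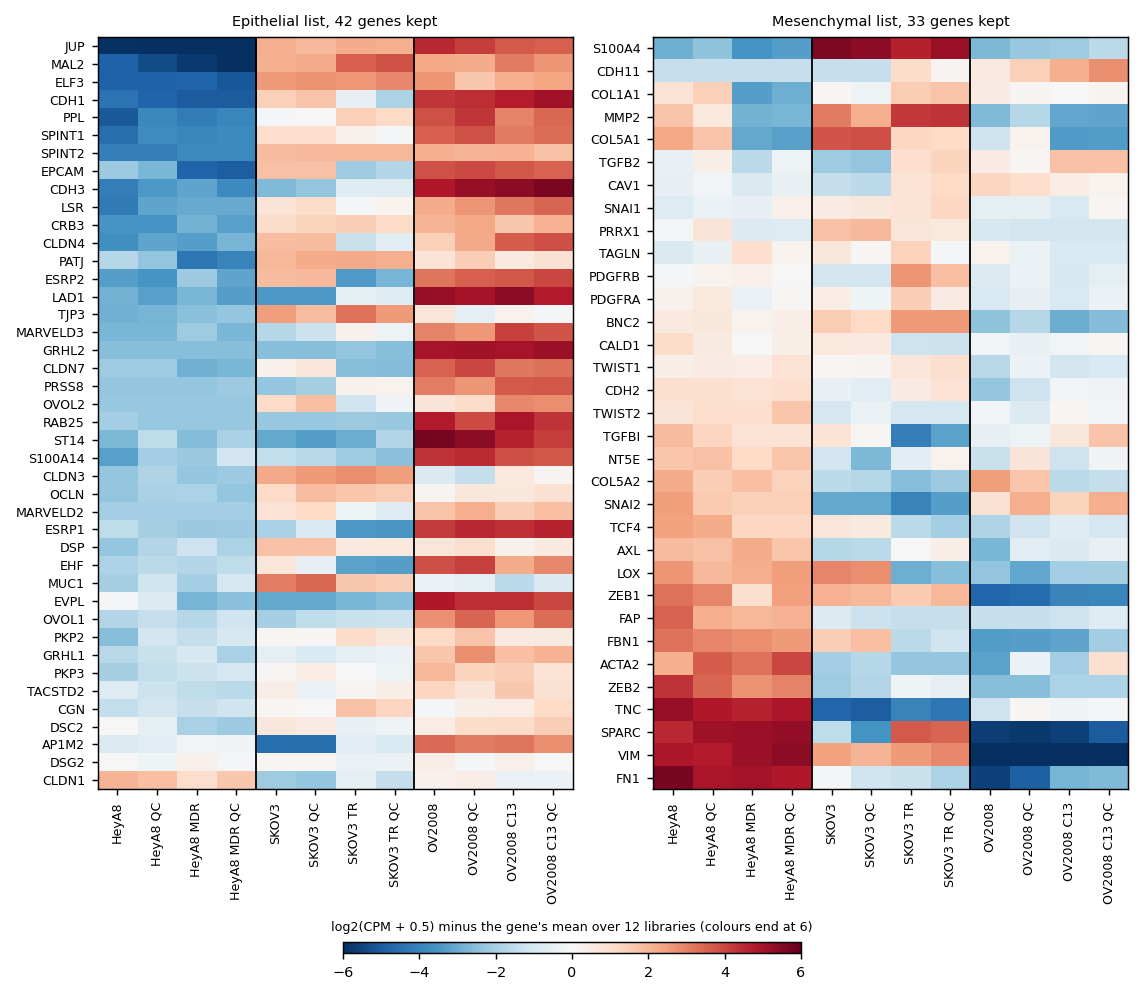
Level of each epithelial (left, 42 genes) and mesenchymal (right, 33 genes) list gene in the 12 libraries, as log2(CPM + 0.5) minus the gene's mean, with genes in order of the HeyA8 family difference. The left 4 columns of each panel are the HeyA8 family, blue (below the mean) for most epithelial genes and red for FN1, VIM and TNC.

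Integrins and basement membrane genes went in both directions. Of 23 integrins kept, 5 were higher members (21.7%) and 4 were lower members (17.4%), and edgeR called ITGA11 higher and ITGB4 lower. ITGA5, the fibronectin receptor subunit, measured 448, 367, 418 and 359 CPM against 10.5, 41.8 and 74.6 CPM (edgeR adjusted p = 0.0666). ITGB2, a leukocyte integrin subunit, measured 78.8, 105, 133 and 145 CPM against 0.447, 1.89 and 14.3 CPM. ITGB6, an epithelial subunit that activates latent TGF-beta, measured 0.177, 0.147, 0 and 0 CPM against 4.58, 12.4 and 28.3 CPM. ITGB6 was at 0 counts in both HeyA8_MDR libraries. ITGA11, a collagen receptor subunit, measured 5.08, 3.96, 2.04 and 3.02 CPM against 0, 0.259 and 0.376 CPM, a log2 difference of 3.84 (SE 0.65, adjusted p = 0.045) with edgeR.

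Of 31 collagens and laminins kept, 5 were higher members (16.1%) and 1 was a lower member (3.23%). Laminin chains, which form epithelial basement membranes, were split, with LAMB3 a higher member and LAMA3 a lower member. LAMB3 measured 1714, 2043, 3020.2 and 3084 CPM against 55.9, 402 and 585 CPM. LAMA3 measured 22.2, 26.5, 22.8 and 25.3 CPM against 154, 202 and 326 CPM, a log2 difference of -3.13 (SE 0.39, adjusted p = 0.0215) with edgeR. edgeR did not call LAMB3 (adjusted p = 0.124). COL6A1, a chain of collagen VI, measured 562, 474, 657 and 630.4 CPM against 0.263, 24.7 and 103 CPM. COL13A1, a transmembrane collagen, measured 23.1, 57.2, 30.99 and 49.3 CPM against 0, 0.146 and 0.692 CPM and was called by edgeR (adjusted p = 0.0434).

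Receptor tyrosine kinases differed in both directions. Of 44 kept, 9 were higher members (20.5%) and 13 were lower members (29.5%), and edgeR called 4 lower and 0 higher. AXL, a receptor tied to the mesenchymal state, measured 1459, 1329, 1821 and 1238 CPM against 57.6, 233 and 511 CPM, a log2 difference of 2.62 (SE 0.53, adjusted p = 0.0663) with edgeR. EGFR, the epidermal growth factor receptor, measured 1607, 1202, 1056 and 931 CPM against 184, 299 and 748 CPM. DDR2, a collagen receptor of mesenchymal cells, measured 371, 145, 132 and 101 CPM against 0.132, 0.936 and 26.7 CPM. The HeyA8 vehicle library had the highest level of EGFR and DDR2, and neither gene was called by edgeR (adjusted p = 0.183 and 0.214).

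The lower receptors included the epithelial collagen receptor DDR1, which measured 12.5, 19.6, 11.9 and 13.6 CPM against 80.9, 98.4 and 119.7 CPM, a log2 difference of -2.76 (SE 0.35, adjusted p = 0.0216) with edgeR. FGFR2, a receptor for fibroblast growth factors whose isoform use differs between epithelium and mesenchyme, was at 0 counts in all 4 HeyA8 family libraries against 5.99, 30.03 and 47.7 CPM (edgeR adjusted p = 0.0308). FGFR3 measured 0.0884, 0.4397, 0.209 and 0.474 CPM against 17.4, 27.4 and 103 CPM (edgeR adjusted p = 0.0215). MST1R, the receptor of macrophage stimulating protein, measured 2.56, 1.58, 2.93 and 1.01 CPM against 20.03, 93.6 and 148 CPM, a log2 difference of -5.36 (SE 0.93, adjusted p = 0.0481) with edgeR. ERBB3 measured 0.486, 0.6595, 0.732 and 0.888 CPM against 6.51, 23.4 and 50.1 CPM and was not called by edgeR (adjusted p = 0.0602). ERBB2 was a lower member by a small margin, at 66.1, 38.4, 60.6 and 34.7 CPM against between 76.1 and 132 CPM in the OV2008 family, while the SKOV3 family held between 3540.4 and 8545 CPM. MET and IGF1R overlapped with the other families.

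Some genes known from endothelial cells were higher members and others were not, and no list of them was set. Besides ESM1, TIE1 and ENG, the genes CDH5, ROBO4, ETS1 and FLI1 were higher members (ROBO4, ETS1 and FLI1 were picked once their values were known). CDH5, the cadherin of endothelial junctions, measured 89.02, 171, 149 and 176 CPM in the HeyA8 family, between 0 and 0.251 CPM in the SKOV3 family and between 6.96 and 13.98 CPM in the OV2008 family. ROBO4, an endothelial guidance receptor, measured 129, 195, 159.6 and 206 CPM against 0, 0.0998 and 1.66 CPM. KDR, the main receptor for vascular endothelial growth factor, measured only 3.49, 3.96, 1.67 and 1.42 CPM but was a higher member all the same. Other endothelial markers did not separate the families: VWF, the clotting factor carrier, measured 5.08, 3.74, 0.4703 and 1.24 CPM and overlapped, and CLDN5 was at or under 0.418 CPM in the HeyA8 family. Of 17 markers of other cell types only 5 were kept, of which CDH5 and CALB2 were higher members (40%, against 9.81% of all genes kept). Of the 17, 7 were at 0 counts in the HeyA8 family (CD3E, MS4A1, TYROBP, DCN, LUM, HBB and HBA1). The summed level of the 17 was between 99.9 and 191 CPM in the HeyA8 family, between 1.501 and 41.9 CPM in the SKOV3 family and between 8.76 and 16.4 CPM in the OV2008 family. Without CDH5 the sum was between 10.9 and 21.2 CPM in the HeyA8 family, between 1.501 and 41.7 CPM in the SKOV3 family and between 1.68 and 3.05 CPM in the OV2008 family. The part of other cells in these levels was not tested.

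Genes of the DNA damage response were high in the HeyA8 family. Damaged cells induce genes of cell cycle arrest, DNA repair and apoptosis. DNA damage was not measured in these libraries, so a high level is not read as a sign of damage. With the vehicle libraries alone, a looser rule that can only add members, 20 genes of the list were higher members. Of 24 list genes, all kept, 17 (70.8%) were higher members, 0 were lower members, and in all 24 the HeyA8 family had the highest median of the 3 families. edgeR called 5 higher and 0 lower. The number called higher was 21 with a term for each family, 15 with DESeq2 and 0 without HeyA8 or without HeyA8_MDR. The median log2 difference of the list was 2.67. The count of higher members was 17 without the HeyA8 QC library and 21 without the HeyA8 vehicle library. Leaving out a library cannot reduce this count. It was 16 with scaling to the library total and 12 with scaling to reference genes.

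The called genes were MDM2, RRM2B, ZMAT3, XPC and EDA2R. MDM2, a ubiquitin ligase, measured 484, 934, 508 and 561 CPM against 34.8, 67.4 and 152 CPM, a log2 difference of 3.01 (SE 0.31, adjusted p = 0.0149) with edgeR. RRM2B, a damage-inducible ribonucleotide reductase subunit, measured 287, 498, 266 and 543 CPM against 20.9, 43.96 and 91.3 CPM, a log2 difference of 3.15 (SE 0.30, adjusted p = 0.013) with edgeR. ZMAT3, a zinc finger RNA-binding protein, measured 441, 535, 421 and 416 CPM against 19.3, 33.9 and 71.5 CPM, a log2 difference of 3.57 (SE 0.38, adjusted p = 0.016) with edgeR. MDM2 was highest in the HeyA8 QC library and RRM2B in both QC libraries. The vehicle libraries of all 3 genes were above those of the other families, which the rule requires of a higher member. EDA2R, the ectodysplasin A2 receptor, measured 66.8, 95.05, 107 and 93.8 CPM and stayed under 1 CPM elsewhere. XPC, a DNA damage sensor, measured 120.0, 154, 172 and 155 CPM against 27.1, 41.8 and 64.4 CPM, a log2 difference of 1.84 (SE 0.30, adjusted p = 0.042) with edgeR.

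CDKN1A, the cell cycle inhibitor p21, was a higher member at 460.2, 769.8, 546 and 580.0 CPM. It measured between 21.1 and 36.8 CPM in the SKOV3 family and between 68.6 and 404 CPM in the OV2008 family, where both QC libraries were the higher ones, and edgeR did not call it (adjusted p = 0.273, and 0.00137 with a term for each family). BAX, an effector of apoptosis, measured 234, 263, 266 and 301 CPM against 36.8, 60.5 and 109 CPM. FAS, a death receptor, measured 74.1, 114, 68.6 and 124 CPM against 2.64, 10.5 and 44.6 CPM. BTG2, GDF15, SESN1 and TNFRSF10B were among the 7 list genes that overlapped.

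**Figure D3:**
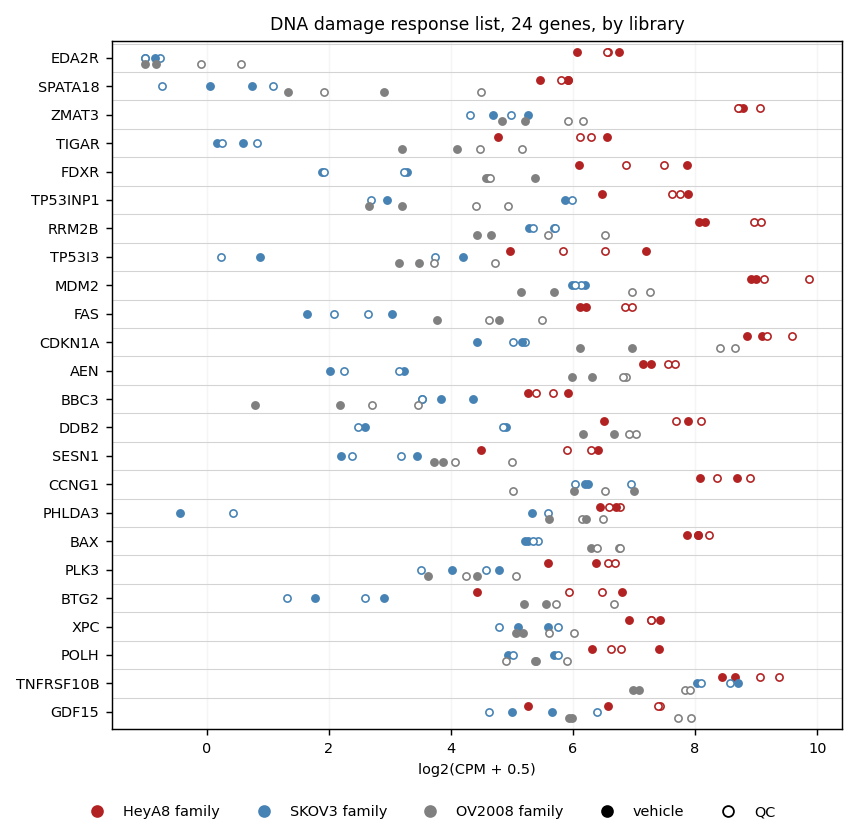
Level of the 24 genes of the DNA damage response list as log2(CPM + 0.5), 1 point per library, with colours for the families, filled points for vehicle and open points for QC. The HeyA8 family points lie to the right of all others for 17 genes, from EDA2R and SPATA18 at the top to POLH near the bottom.

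At 9p21, MTAP was the only lower member of 10 list genes kept (10%), a share near that of all genes. This region of chromosome 9 holds MTAP, which salvages methionine and adenine, and the cell cycle inhibitors CDKN2A and CDKN2B. MTAP measured 0, 0, 0 and 0.118 CPM against 39.9, 70.3 and 170.3 CPM elsewhere, and edgeR called it lower (adjusted p = 0.0215). It had 2 counts in the HeyA8_MDR QC library and 0 in the other 3. CDKN2A and CDKN2B were at 0 counts in all 4 HeyA8 family libraries. In the SKOV3 family CDKN2A was at 0 in 3 libraries and 0.32 CPM at most, and in the OV2008 family it measured between 116 and 164 CPM. CDKN2B was at 0 counts in the SKOV3 family too and measured between 7.65 and 33.3 CPM in the OV2008 family. MTAP thus set HeyA8 apart from both families, and CDKN2A and CDKN2B only from OV2008. Of the list genes on one side, KLHL9 measured 70.9, 36.5, 53.3 and 22.8 CPM and FOCAD 51.3, 75.8, 52.4 and 73.02 CPM. Both overlapped with the other families. On the other side DMRTA1 was at 0 counts in the HeyA8 family, between 0 and 2.02 CPM in the SKOV3 family and between 0.176 and 1.98 CPM in the OV2008 family. ELAVL2 was at or under 0.0884 CPM, between 0 and 0.535 CPM and between 11.4 and 23.1 CPM in the same order. MIR31HG and IFNE, which are not on the list, formed a run of 3 consecutive lower members with MTAP. The genes kept that lay next to MTAP on the side of KLHL9 and FOCAD were thus lower members too. Whether MIR31HG and IFNE share reads was not checked.

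Other runs of neighbouring members were found along the chromosomes. Over 15859 genes kept that had a place in the RefSeq order, 54 runs of 3 or more consecutive higher members and 49 of lower members were counted. The longest had 6 genes each: GAS6-AS1, GAS6, GAS6-DT, SWINGN, RASA3 and CDC16 on chromosome 13 (higher), and KIAA0930, FAM118A, SMC1B, RIBC2, FBLN1 and LINC01589 on chromosome 22 (lower). GAS6, the ligand of AXL, measured 164, 191, 291 and 313 CPM against 17.1, 42.4 and 71.3 CPM. GAS6-AS1 and GAS6-DT are transcribed from the neighbourhood of GAS6. Whether the counting used strand is not given in the sources used here, so the reads of these 3 genes cannot be told apart. The same limit holds for other runs with a gene beside its antisense transcript, such as TMEM44 with TMEM44-AS1 and TMEM44-AS2. The run counts are thus not counts of independent genes. CDC16, a subunit of the anaphase-promoting complex, measured 108, 111, 124 and 122 CPM against 35.3, 69.6 and 78.1 CPM. FBLN1, the matrix protein fibulin-1, measured 9.37, 17.6, 18.97 and 25.6 CPM against 40.1, 99.5 and 134 CPM.

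ETS1 and FLI1, transcription factors of the ETS family, lay beside SENCR in a run of 3 higher members on chromosome 11. FLI1, which is known from endothelial and blood cells, measured 88.5, 92.3, 76.03 and 84.2 CPM in the HeyA8 family, between 0.213 and 10.1 CPM in the SKOV3 family and 0 in all OV2008 family libraries. ETS1 measured 981, 921, 764 and 1004 CPM against 26.7, 104 and 211 CPM. CD274 and PDCD1LG2, which encode the ligands of the immune receptor PD-1, formed a run of 3 with PLGRKT on chromosome 9 (both were picked once their values were known). CD274 measured 24.3, 26.7, 16.8 and 24.04 CPM against 0.318, 2.28 and 15.3 CPM, and PDCD1LG2 measured 30.4, 19.6, 8.57 and 8.77 CPM against 0, 0.495 and 1.98 CPM. CD274 exceeded the highest OV2008 family library by little, and PDCD1LG2 was lower in HeyA8_MDR than in HeyA8.

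Members were unevenly spread over chromosomes. On chromosome 13, 58 of 280 genes kept (20.7%) were higher members and 3 (1.07%) were lower members. Chromosome 12 had 17.5% higher and 3.27% lower members, and chromosome 3 had 16% and 4.71%. The balance was opposite on chromosome 7, with 8.34% higher and 16.2% lower members, and on chromosome 15, with 6.98% and 14.7%. Of the damage response members, MDM2 lies on chromosome 12 and ZMAT3 and XPC on chromosome 3, while EDA2R lies on X and CDKN1A on chromosome 6. Higher members made up 8.32% of the genes kept on X and 5.25% on chromosome 6. These genes are examples from the 17 damage response members. Whether the share of a chromosome bears on their levels was not tested. Genes of a chromosome are not independent, and no test was made of these shares.

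**Figure D4:**
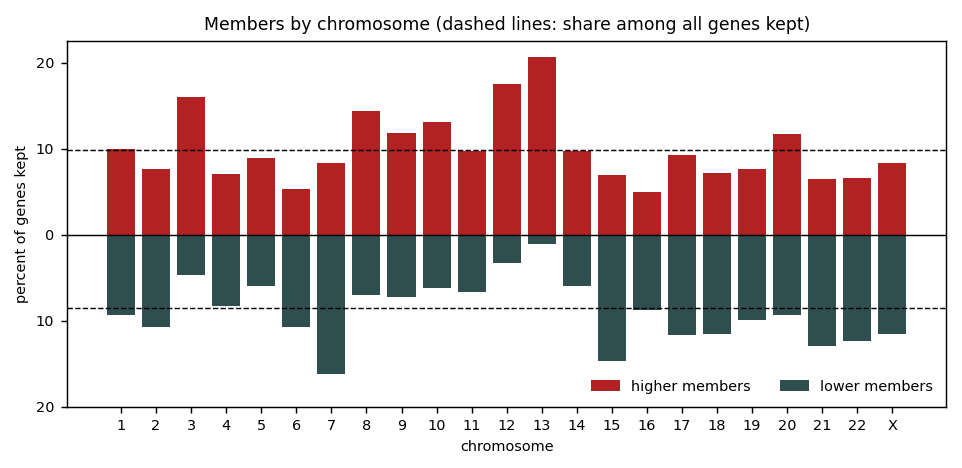
Percent of the genes kept on each chromosome that were higher members (bars upward) or lower members (bars downward), with dashed lines at the shares over all genes kept, 9.81% and 8.51%. Chromosomes 13, 12 and 3 stand out upward and chromosomes 7 and 15 downward.

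The lineage markers of the labelled ovarian origin leaned low in the HeyA8 family, though PAX8 did not. Of the 18 kept, the HeyA8 family had the lowest median of the 3 families in 13, the middle one in 4 and the highest in 1. The median log2 difference of the list was -1.85. PAX8 measured 379, 308, 327 and 255 CPM in the HeyA8 family and overlapped with the SKOV3 family, at between 235 and 482 CPM, while the OV2008 family held between 7.54 and 24.7 CPM. TP63, a squamous lineage factor, was at or under 0.177 CPM in the HeyA8 family, between 0 and 0.119 CPM in the SKOV3 family and between 107 and 328 CPM in the OV2008 family. OV2008 was thus the family whose markers went against a PAX8-positive pattern. MUC16, the CA125 antigen, measured 0.177, 0, 0 and 0.296 CPM, and EMX2 was not kept by the filter. Of 18 ovarian and Mullerian markers kept, WT1 was the only higher member, at 4.77, 4.43, 4.65 and 4.32 CPM against 1.001, 2.203 and 4.001 CPM, and WFDC2, BCAM and GATA6 were lower members (16.7%). edgeR called 0 of the 18, 0 of the keratins and 0 of 19 squamous markers. WFDC2, which encodes the serum marker HE4, was at or under 0.474 CPM in the HeyA8 family. Of 19 squamous markers TRIM29 was the only member (lower, 5.26%). Of 36 HOX genes, HOXD4 was a higher member (2.78%) and HOXA11 and HOXA13 were lower members (5.56%), shares under those of all genes. HOXA13, a positional factor, measured 0.8398, 0.733, 0.941 and 0.592 CPM against 5.64, 13.3 and 20.6 CPM, a log2 difference of -3.99 (SE 0.66, adjusted p = 0.0428) with edgeR.

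Of 22 cytokine genes kept, 4 were higher members (18.2%) and 2 were lower members (9.09%), and edgeR called 0. CSF3, the granulocyte growth factor, measured 245, 138, 31.5 and 26.7 CPM against 0, 0.146 and 9.804 CPM. CXCL8, the neutrophil chemokine interleukin-8, measured 512, 576, 26.1 and 179 CPM and was no member, since the HeyA8_MDR vehicle library lay inside the range of the others, 3.37, 27.2 and 37.98 CPM (edgeR adjusted p = 0.0686). Both genes were highest in the 2 HeyA8 libraries and lower in HeyA8_MDR. Of 25 interferon-stimulated genes, 4 were lower members (16%), 0 were higher members and edgeR called 0. BST2, which tethers viruses to the cell surface, was at or under 0.0884 CPM in the HeyA8 family against 1.33, 53.99 and 118 CPM elsewhere.

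Genes of glucose use included 4 higher members of 26 kept (15.4%) and 2 lower members (7.69%). SLC2A3, the high-affinity glucose transporter GLUT3, measured 104, 188, 249.6 and 339 CPM against 0.0879, 0.2998 and 0.746 CPM, a log2 difference of 9.41 (SE 0.54, adjusted p = 0.00385) with edgeR. ARRDC4, a glucose-sensing arrestin, measured 0, 0.0733, 0.105 and 0 CPM against 2.72, 58.3 and 93.5 CPM (edgeR adjusted p = 0.0409). TXNIP, its partner under the same glucose-responsive factor, measured 119, 43.3, 6.38 and 4.26 CPM and overlapped with the other families, at 98.8, 248 and 2013 CPM. The media differed in glucose, so the line and the medium cannot be told apart for these genes. Of 22 amino acid response genes, SESN2 and STC2 were higher members (9.09%) and SLC7A5, PYCR1 and ALDH18A1 lower members (13.6%), and edgeR called 0. Of 4 cancer-testis antigens kept, 0 were members.

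Of 12 reference genes, RPLP0, GAPDH and GUSB were higher members (25%), and the list's median log2 difference was 0.68. RPLP0, a ribosomal stalk protein, measured 2446, 2355, 3117 and 3355 CPM against 704, 1263 and 1649.9 CPM. The median log2 difference over all genes kept was -0.05 with TMM, -0.27 with scaling to the library total and -0.60 with scaling to the reference genes.

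**Figure D5:**
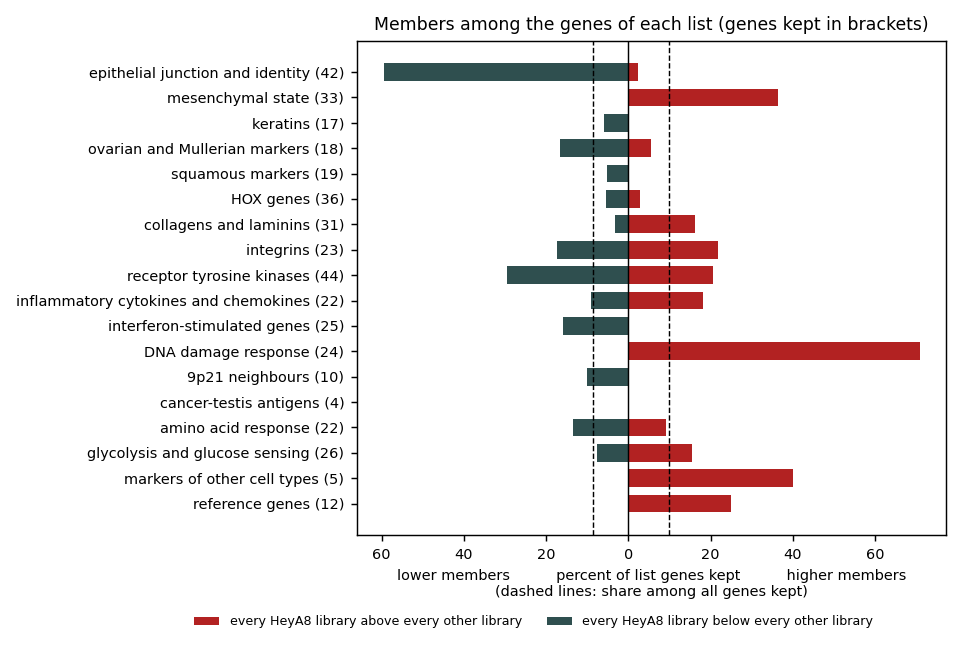
Percent of the genes kept in each of 18 lists that were higher members (right) or lower members (left) of the HeyA8 family, with the number kept in brackets and dashed lines at the shares over all genes kept. The DNA damage response list (70.8% higher), the epithelial list (59.5% lower) and the mesenchymal list (36.4% higher) reach farthest from the lines among lists of 10 genes or more.

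QC and vehicle libraries were also compared within the HeyA8 family. The rule asks all 4 HeyA8 family libraries to lie on one side of the other 8, which favours genes that differ little within the family, so no difference between members and all genes is read from these shares. In HeyA8, 7.52% of higher and 5.62% of lower members differed by 2-fold or more between the QC and vehicle libraries, against 8.4% of all genes kept. In HeyA8_MDR these shares were 4.76% and 4.1% against 7.37%. These are single pairs of libraries with no replicate. HeyA8_MDR and HeyA8 under vehicle differed by 2-fold or more in 17.2% of higher and 11.8% of lower members, against 19.5% of all genes kept. A QC effect that differed between the HeyA8 family and the other families was tested with edgeR as an interaction with a term for each line. It gave 0 genes at an adjusted p under 0.05 and 1395 (7.85%) at an unadjusted p under 0.05, of which 108 were higher members (6.2% of those kept) and 154 were lower members (10.2%). DESeq2 called 27 genes for the same term.

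With fewer libraries to separate, the rule gave longer lists. The 6 vehicle libraries alone gave 2697 higher members, of which 77.2% were also found with the 6 QC libraries alone, and the 3308 higher members by QC libraries had 62.9% in common with vehicle. For lower members the lists held 2443 and 3109 genes, with 74.6% and 58.6% shared.

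Some further genes near 0 in the HeyA8 family fell outside the rule for named genes and were picked once their values were known. MGMT, which repairs alkylated guanine, was at 0 counts in all 4 HeyA8 family libraries against 10.7, 25.5 and 29.8 CPM in the others. HLA-C, a class I antigen-presenting molecule, was at 0 counts in 3 HeyA8 family libraries and had 2 counts in the fourth, against 0.364, 26.3 and 81.1 CPM elsewhere. HLA-B measured 27.4, 49.8, 42.7 and 69.9 CPM and B2M, the shared light chain, 228, 254, 243 and 309 CPM, and both overlapped with the other families. HLA genes are polymorphic and near copies of each other, so their counts are uncertain.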

How the data were processed

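RNA-seq of 12 libraries from 6 cell lines was analysed. The authors deposited raw counts of reads per gene, without normalization. Per the paper the reads were aligned with TopHat to hg19, while the submitters' processing notes name STAR 2.7.3a, HTSeq 0.6.1p1 and GRCh38.p13, so aligner and build are uncertain. The table itself names no build. Ensembl IDs were paired with symbols from a reference table for 58620 of 60669 genes, and the 2049 unpaired genes hold 0.132% of the counts.

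Counts were filtered with edgeR's filterByExpr (families as groups, minimum count 10, minimum total 15) and scaled by TMM (edgeR 4.0.16 with limma 3.58.1, under R 4.3.3). Gaps and log2 levels used 0.5 CPM added. Both libraries of each line were summed, and 2 HeyA8 lines were tested against 4 others by edgeR's quasi-likelihood test, two-sided, with 4 residual degrees of freedom. The QC interaction used all 12 libraries with a term for each line. DESeq2 1.42.0 was an alternative. The methods were tested on simulated data. For the line sums these were drawn with less spread between lines than the real counts showed. Nothing about the power of that test is read from them. No library had a replicate of the same line and treatment.

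Named genes were the 10 with the widest gap in each direction with at least 5 CPM on the high side, the 3 widest of each of 18 lists in each direction, set lineage and resistance genes, the genes at the edge of the rule and the longest runs, with further list genes and those said to be picked once their values were known. Members, lists and named genes were chosen with earlier results of these data known. Some genes of the lists and of this rule are not reported here and were left out of the list counts. CD24, CT45A1, DDX58 and PECAM1 were not paired. The columns used cover all 12 samples.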

Additional observations from a re-analysis of the deposited data

Results flagged for a closer look

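For each library the distance to the nearest library of its family was taken as a share of the family's range. A library was set apart when this share exceeded Dixon's 95% critical value for 4 samples. Among 4 replicates of the same condition, chance alone gives this in about 1 in 20 sets of values. The 4 libraries of a family differ in line and treatment and are not replicates, so that rate does not apply here. The critical value served only to pick libraries for description. Over 282 pairs of a gene and a family at 5 CPM or more in the median, 8 (2.84%) exceeded the critical value. In the HeyA8 family the HeyA8 vehicle library was the high one for DDR2 (371 CPM, with the others between 101 and 145), SNAI2 (108 CPM, others 49.7 to 54.8) and FAP (14.8 CPM, others 4.76 to 5.42). MDM2 was high in the HeyA8 QC library (934 CPM, others 484 to 561). In the SKOV3 family ZEB1 was low in the SKOV3_TR vehicle library (49.2 CPM). In the OV2008 family MST1R was high in the OV2008_C13 vehicle library (148 CPM), and STC2 (125 CPM) and KRT7 (13.8 CPM) were low in the OV2008 vehicle library. All 4 HeyA8 family libraries of DDR2, FAP and MDM2 were above the other families, which the rule requires of a higher member. The causes were not tested.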

How the results depend on the processing

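With at least 10 counts in every library there were 995 higher and 895 lower members, with the vehicle libraries alone 2697 and 2443, with the QC libraries alone 3308 and 3109, with a gap of at least 2-fold 516 and 396, and with scaling to reference genes, chosen after seeing the data, 794 and 2806. Leaving out each library in turn gave 1797 to 2304 higher and 1577 to 1942 lower members. Leaving out a library can only add members under the rule, here and for the lists below. These counts are thus no check of stability. The epithelial list had 25 lower members, 10 with at least 10 counts in every library and 25 to 26 without each library in turn. The mesenchymal list had 12 higher members, 7 with at least 10 counts in every library, 7 with a 2-fold gap and 12 to 14 without each library. The DNA damage response list had 17 higher members, 6 with a 2-fold gap and 17 to 21 without each library.

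For the test on line sums, the calls (higher and lower) were 182 and 126 with edgeR, 919 and 1679 with DESeq2, 332 and 258 with no filter, 112 and 67 with vehicle libraries, 1794 and 2092 over 12 libraries with a treatment term, 1799 and 1297 with a term for each family, 1114 and 1390 against the SKOV3 family and 2444 and 2414 against the OV2008 family. Leaving out each line gave 0 to 136 and 0 to 93, where an arm of 1 HeyA8 line is assumed to vary like the others. The QC interaction gave 0 genes with edgeR and 0 to 0 without each line, 27 with DESeq2 and 124 with no filter. For 23 single list genes called with edgeR, the call held in 264 of 368 gene and setting pairs and was lost in 104. CDH1, EPCAM, VIM and CDKN1A, which were not called, gained a call in 16 of 64. In 0 pairs did the direction reverse. The cause of these changes was not tested. No paired analysis was possible because the groups compared are different cell lines and the labels give no replicate numbers.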
